A study of Homo sapiens with 6 samples.

Results

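Platelets are made by megakaryocytes, the large marrow cells that share a bipotent progenitor with red cells. Their surface carries the receptors of blood clotting, among them the GPIb-IX-V complex for von Willebrand factor, glycoprotein VI for collagen, protease-activated receptors for thrombin and the integrin αIIbβ3 for fibrinogen. Their granules store chemokines and adhesive proteins, and an actin and tubulin skeleton shapes the cell. K562, a human chronic myelogenous leukemia cell line, has mainly erythroid features and can also turn on megakaryocytic genes. Described here are 33 megakaryocyte and platelet genes, a list of names, and the ribosome footprints counted for each of them. All 33 were found by symbol among the 19330 transcripts of the table, each with 1 listed transcript. The list was drawn up with results of the same comparison known, and GP6 and F2RL3 had stood among its largest decreases. The changes given below are therefore a description of these genes and support no claim about platelet genes as a class.

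Ribosome profiling (Ribo-Seq) counts the mRNA fragments that ribosomes shield from nuclease, so a footprint count reflects mRNA abundance as well as translation. Libraries came from 3 control cultures (sgCtrl, genotype Control, guides against the olfactory receptor genes OR11A1 and OR2M49 as spelled in the labels) and from 3 N6AMT1-depleted cultures (sgN6AMT1). The N6AMT1 enzyme adds a methyl group to eRF1, the factor that ends translation at stop codons. All cells carried the pLentiCRISPRv2 vector by lentiviral infection, were selected with puromycin for 48 h and were taken 10 days after infection, so both groups share vector, selection and time. The labels name neither the N6AMT1 guide nor the control guide of each library, and each culture was a pool of transduced cells. In such bulk libraries, fewer cells making a protein and less of its mRNA per cell cannot be told apart.

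The libraries held 1821356 to 2969736 counts, and pairs of libraries within a group differed by 1.25 to 1.68 in chi-square per degree of freedom, more than sampling noise. The targeted gene N6AMT1 had 25, 24 and 34 counts in sgCtrl against 10, 9 and 8 in sgN6AMT1, without overlap. Its listed transcript, ENST00000460212.1, is annotated by GENCODE as a target of nonsense-mediated decay. These counts do not measure how much of the protein was lost. All 11 erythroid markers had enough counts, and their summed level was 27413 to 28906 counts scaled to a common library size (CPM) in sgCtrl and 27885 to 28848 in sgN6AMT1. Most of this sum was HBG1 and HBG2, at 9553 and 9920 CPM in sgCtrl. In the comparison given below, ALAS2 and HBE1 were higher in sgN6AMT1 (log2 fold changes 1.68 and 0.48). TFRC, HBZ, KLF1 and GATA1 were lower (-0.33, -0.27, -0.37 and -0.29), and the other markers did not pass. The level sum thus does not show each marker as unchanged. Of markers of other cells, all 6 endothelial ones were at 0 in every library. CD3D of 5 T cell markers and LYZ of 6 monocyte and neutrophil markers had enough counts, and none of the B cell markers did, while CD2, CD5, MS4A1, PAX5, CD14 and ELANE were at 0. The summed monocyte and neutrophil level was 50.7 to 61.0 CPM in sgCtrl and 101 to 111 in sgN6AMT1. Nearly all of this sum was LYZ, at 54.4 ± 5.47 and 102.7 ± 5.60 CPM (SD, n = 3 each), while MPO, CSF1R and CSF3R had almost no counts. The sum thus shows a rise of LYZ rather than of these markers as a set. Its part in the changes of the platelet genes was not tested. THBS1 and F2R are also made by endothelial cells.

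The decreases described below were largest for 4 surface receptors, so the 250 bases before the RefSeq start of each are shown (GRCh38.p14, 5′ to 3′ in the direction of transcription). ITGA2B lies on the minus strand at chr17:44389650-44389899, GP1BB on the plus strand at chr22:19723289-19723538, GP6 on the minus strand at chr19:55038265-55038514 and F2RL3 on the plus strand at chr19:16888749-16888998. Capitals mark letters of a GATA word or an ETS word on either strand. The GATA words searched were AGATAA with its variant AGATAG, besides TGATAA with its variant TGATAG. The ETS words searched were AGGAAG with its variant CGGAAG. Factors of the GATA and ETS families are known to act together at megakaryocytic promoters.
ITGA2B: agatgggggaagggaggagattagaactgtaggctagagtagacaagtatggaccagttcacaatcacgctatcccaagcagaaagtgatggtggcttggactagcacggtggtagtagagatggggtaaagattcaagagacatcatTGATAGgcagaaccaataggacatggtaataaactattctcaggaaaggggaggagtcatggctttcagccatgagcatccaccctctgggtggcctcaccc
GP1BB: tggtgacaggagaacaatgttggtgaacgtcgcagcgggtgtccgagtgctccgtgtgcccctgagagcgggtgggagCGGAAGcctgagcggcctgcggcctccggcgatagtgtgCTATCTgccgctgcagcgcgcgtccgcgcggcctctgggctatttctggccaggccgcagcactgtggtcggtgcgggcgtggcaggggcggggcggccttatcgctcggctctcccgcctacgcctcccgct
GP6: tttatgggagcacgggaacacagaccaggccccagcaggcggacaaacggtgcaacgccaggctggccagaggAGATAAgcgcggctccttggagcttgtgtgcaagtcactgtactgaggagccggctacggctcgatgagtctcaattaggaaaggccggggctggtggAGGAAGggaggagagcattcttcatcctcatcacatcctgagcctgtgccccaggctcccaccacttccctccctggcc
F2RL3: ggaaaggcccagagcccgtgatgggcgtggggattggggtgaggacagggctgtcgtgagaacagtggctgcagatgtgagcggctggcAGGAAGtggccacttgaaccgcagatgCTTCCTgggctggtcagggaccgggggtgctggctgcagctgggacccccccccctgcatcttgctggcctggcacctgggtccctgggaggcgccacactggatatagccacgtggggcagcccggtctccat

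The ITGA2B window held a GATA word 102 to 97 bases before the start and none of the ETS words searched. ETS sites with other letters would not be found by these words. GP1BB had a GATA word on the other strand at 133 to 128 bases and an ETS word at 172 to 167 bases. GP6 had a GATA word at 177 to 172 bases and an ETS word at 79 to 74 bases. F2RL3 had no GATA word and 2 ETS words, at 161 to 156 bases and, on the other strand, at 134 to 129 bases. None of these words overlapped another. Promoter sequences were at hand for 24 of the 33 genes, with 31 windows in all because some have several starts. A GATA word was in 11 of these windows (35.5%) and in 22.3% of 35116 windows of all genes. An ETS word was in 24 (77.4%) and in 40.8% of all windows, and both were in 10 (32.3%) against 8.13%. The NF-E2 word GCTGAGTCA was in 0 of the 31 and in 0.456% of all. The 15 windows of genes with enough counts and the 16 windows of genes with few or none held an ETS word in 12 each, and a GATA word in 5 and 6. These are letter matches, not measured binding. Windows of one gene can overlap.

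Of the 33 genes, 16 had enough counts to be compared and 17 did not, the filter being edgeR's filterByExpr at a minimum of 10 counts. The genes with almost no footprints included most of the defining platelet products. GP1BA and GP5 of the von Willebrand receptor, the podoplanin receptor CLEC1B, the ADP receptor P2RY12 and the granule proteins PF4, SELP, VWF, F13A1 and TREML1 had 0 counts in all 6 libraries. A count of 0 allows up to 3 counts, or 1.03 to 1.63 CPM by library. GP9 had 1 count in sgCtrl replicate 1, and PPBP, a chemokine precursor, had 1 in each of sgCtrl replicates 1 and 2. LAT, an adaptor of collagen receptor signalling, and MMRN1, a granule protein, each had 1 count, both in sgN6AMT1 replicate 3. FLI1, the ETS factor of megakaryocytes, had 1 count in sgCtrl replicate 3 and 1 in sgN6AMT1 replicate 2 on its listed transcript. PLEK, a protein kinase C substrate of platelets, had 2, 1 and 0 counts in sgCtrl against 3, 1 and 4 in sgN6AMT1.

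The filter lay between ITGB3 and P2RX1. ITGB3 passed it with 13, 14 and 7 counts in sgCtrl against 11, 11 and 8 in sgN6AMT1. P2RX1, an ATP-gated channel, did not pass it, with 6, 7 and 6 counts in sgCtrl against 4, 7 and 2 in sgN6AMT1. TBXAS1, thromboxane synthase, had 0, 2 and 0 counts in sgCtrl against 1, 12 and 6 in sgN6AMT1. Its groups overlapped, since sgN6AMT1 replicate 1 lay below sgCtrl replicate 2. Over the summed counts its ratio was 10.2 (exact 95% interval 2.46 to 90.4, counting error only), resting on 2 counts in sgCtrl. Without the filter on low counts, TBXAS1 was past the threshold in edgeR's test.

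Together the 33 genes held 0.118% ± 0.0021 of all counts in sgCtrl and 0.110% ± 0.0031 in sgN6AMT1 (SD, n = 3 each). Most of this came from SRGN, FERMT3, NFE2, PRKAR2B, GP1BB and RAP1B, 6 genes that took 82.4% of the CPM of the list in sgCtrl. Levels of different genes were compared per length, as CPM per kilobase of coding sequence (CDS), for the 15 compared genes with a known CDS length. Whether the deposited counts leave out footprints beyond the CDS is not stated, which would raise a level per length if they do not. The listed transcript of GP6 was not matched in the annotation. SRGN stood highest in sgCtrl, at 544 ± 46.3 CPM per kb, followed by GP1BB at 228 ± 15.9, NFE2 at 157 ± 13.8, RAP1B at 145 ± 13.7, PRKAR2B at 113 ± 4.45 and FERMT3 at 100.1 ± 7.67 (SD, n = 3 each). SRGN encodes serglycin, the proteoglycan core of storage granules, which is made in many blood cells. These 6 lay above the 80th percentile of 8607 genes, whose median was 24.3 CPM per kb. F2R at 26.6 ± 1.36 lay close to that median and F2RL3 at 18.9 ± 0.97 below it. The remaining 7, TUBB1, NBEAL2, TBXA2R, PTGS1, THBS1, ITGA2B and ITGB3, lay between 9.42 and 2.09 CPM per kb. In this order the sgCtrl values of NFE2 and RAP1B overlapped, as did those of PRKAR2B and FERMT3. The same held for TUBB1, NBEAL2, TBXA2R and PTGS1 in sequence, and for THBS1 and ITGA2B.

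**Figure D1:**
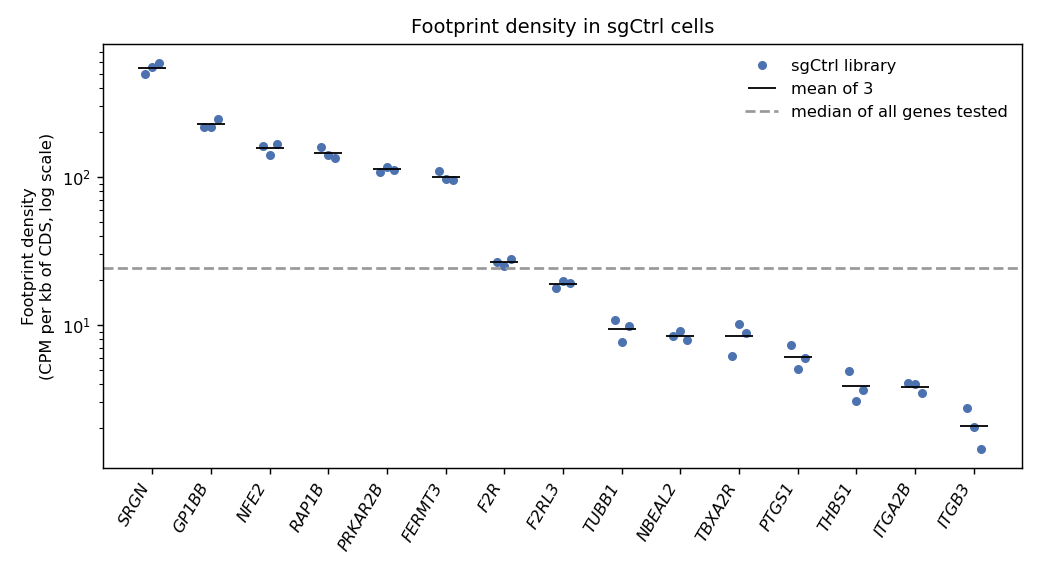
Footprint density in CPM per kilobase of CDS (log scale) in the 3 sgCtrl libraries (points) and their mean (bars) for the 15 compared genes with a CDS length, and the median of all genes tested (dashed). The 6 densest genes stand between 100.1 and 544 CPM per kb and ITGB3 lowest at 2.09.

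Between the groups, ITGA2B, GP1BB, GP6, F2RL3, FERMT3, PRKAR2B, TUBB1 and NBEAL2 were lower in sgN6AMT1, while SRGN and PTGS1 were higher. By edgeR's quasi-likelihood test over 9202 genes, at an adjusted p of 0.05, 8 of the 16 genes were lower and 2 higher, and 6 did not pass. Over all genes tested, 13.9% were lower, 12.9% higher and 26.9% passed in either direction. The groups did not overlap for 9 of the 16, and for 37.5% of all genes. The median log2 fold change of the 16 was -0.41, where that of all genes was 0.0063. Since the list was drawn up with this comparison in view and genes are compared only where they have counts, these counts are given beside the background with nothing read from them.

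**Figure D2:**
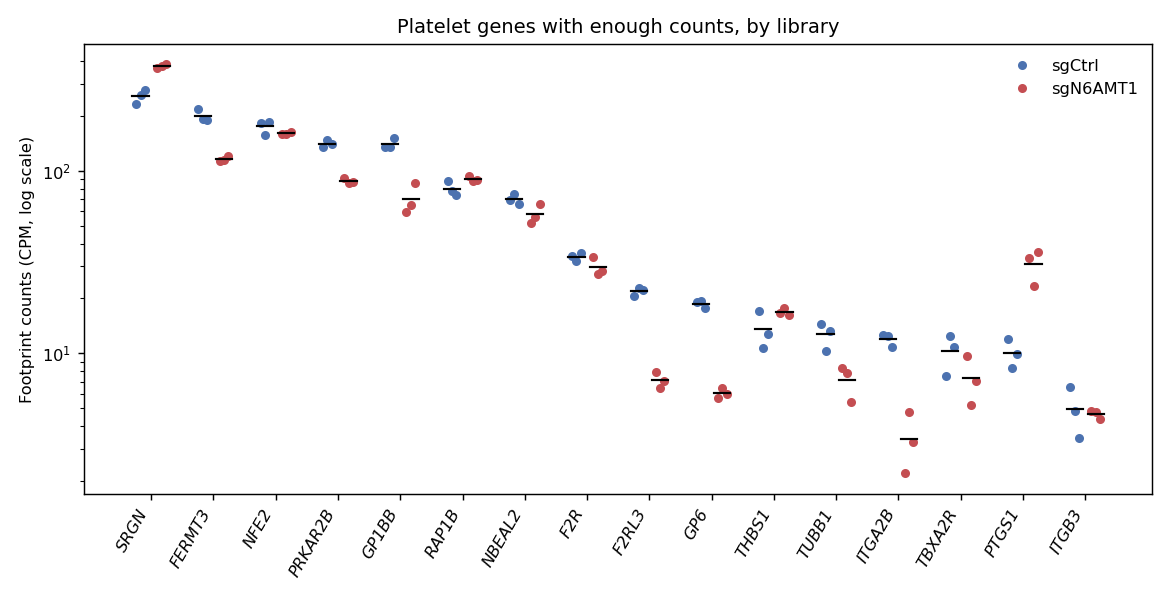
Footprint counts in CPM (log scale) for the 16 compared genes in each sgCtrl and sgN6AMT1 library (points), with the mean of 3 (bars). The sgN6AMT1 values of F2RL3, GP6, ITGA2B, GP1BB, FERMT3, PRKAR2B and TUBB1 all lie below those of sgCtrl, and those of SRGN and PTGS1 all lie above.

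Among the adhesion receptors, the αIIb subunit and the β subunit of GPIb were lower and the β3 subunit was not. ITGA2B, the αIIb subunit (ENST00000262407.5, chromosome 17, 44372181 to 44389649, GRCh38, 30 exons), had 25, 36 and 22 counts in sgCtrl against 5, 11 and 6 in sgN6AMT1. The groups did not overlap, with all depleted libraries low. In sgN6AMT1, ITGA2B was at 2.19, 4.75 and 3.26 CPM, and it passed the filter on low counts only through sgCtrl. Its level fell from 11.9 ± 0.95 to 3.40 ± 1.29 CPM (SD, n = 3 each), for a log2 fold change of -1.79 (SE 0.32). Its partner ITGB3, the β3 subunit on the same chromosome (47253827 to 47313743, a span shared with a joint gene on the same strand), was at 4.94 ± 1.54 and 4.64 ± 0.26 CPM. The groups of ITGB3 overlapped, and its log2 fold change was -0.08 (SE 0.37, 95% interval -0.80 to 0.65), positive at 0.13 without sgCtrl replicate 1. The difference between the 2 subunits was not tested.

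GP1BB, the β subunit of GPIb (ENST00000366425.3, chromosome 22, 19723539 to 19724771, 2 exons), was by far the best covered receptor of the list. Its counts were 269, 393 and 309 in sgCtrl against 136, 150 and 158 in sgN6AMT1. In CPM these were 135, 135 and 152 against 59.6, 64.8 and 85.8, so the highest depleted library stayed below the lowest control. Its log2 fold change was -1.02 (SE 0.098), or 2.03-fold lower. The subunits it pairs with, GP1BA, GP5 and GP9, had no more than the 1 count given above. GP1BB lies just behind SEPT5 on the same strand, and GENCODE annotates SEPT5 transcripts and a joint gene that run over it. The listed SEPT5 transcript ends at 19722629, before GP1BB starts. SEPT5, a septin found at platelet granules, had 56, 58 and 67 counts in sgCtrl against 13, 15 and 25 in sgN6AMT1, with a log2 fold change of -1.67 (SE 0.23). Whether readthrough RNA contributed to the GP1BB count was not tested.

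Glycoprotein VI and one thrombin receptor, the genes whose decreases brought up the list, had similar values. GP6, the collagen receptor (chromosome 19, 55013705 to 55038264, by gene name), had 38, 56 and 36 counts in sgCtrl against 13, 15 and 11 in sgN6AMT1. Its level was 18.7 ± 0.84 and 6.05 ± 0.40 CPM (SD, n = 3 each), 3.08-fold lower, with a log2 fold change of -1.62 (SE 0.25). F2RL3, the thrombin receptor PAR4 (ENST00000248076.3, chromosome 19, 16888999 to 16892606, 2 exons), had 41, 66 and 45 counts in sgCtrl against 18, 15 and 13 in sgN6AMT1. It was at 21.8 ± 1.12 and 7.14 ± 0.71 CPM (SD, n = 3 each), 3.05-fold lower, with a log2 fold change of -1.61 (SE 0.23). For both genes all depleted libraries lay below all controls. F2R, the thrombin receptor PAR1 (ENST00000319211.4, chromosome 5, 76716126 to 76735770, 2 exons), had 68, 93 and 72 counts in sgCtrl against 77, 63 and 52 in sgN6AMT1. Its groups overlapped at 33.9 ± 1.73 and 29.7 ± 3.52 CPM, with a log2 fold change of -0.18 (SE 0.15, 95% interval -0.46 to 0.11), and it did not pass. The intervals of the 2 thrombin receptors did not meet, that of F2RL3 being -2.07 to -1.16. Since F2RL3 was listed for its decrease in this same comparison, nothing is read from that gap, and their difference was not tested.

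**Figure D3:**
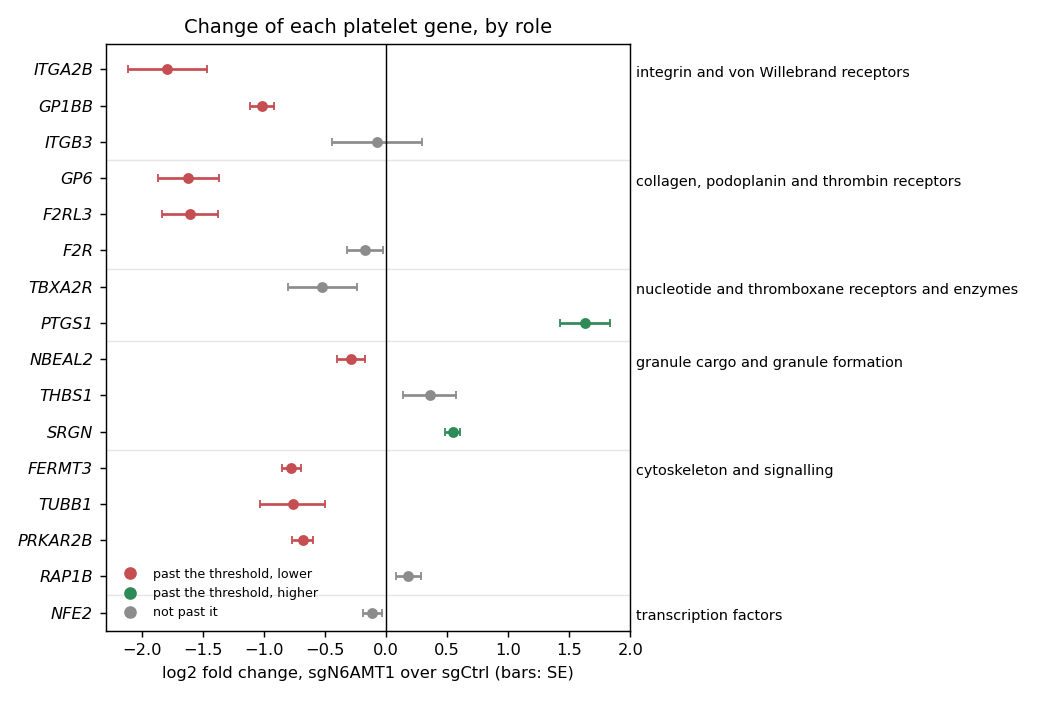
Log2 fold change of sgN6AMT1 over sgCtrl with its SE (bars) for the 16 compared genes, grouped by role and coloured by the threshold at an adjusted p of 0.05. ITGA2B, GP6, F2RL3 and GP1BB have the most negative values, from -1.79 to -1.02, and PTGS1 the most positive at 1.63.

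In the thromboxane pathway, the enzyme PTGS1 rose and the receptor did not pass. PTGS1, cyclooxygenase 1, makes the prostaglandin that thromboxane synthase converts (ENST00000619306.4, chromosome 9, 122371039 to 122392608, 10 exons). It had 24, 24 and 20 counts in sgCtrl against 76, 54 and 66 in sgN6AMT1. Every depleted library lay above every control, at 30.8 ± 6.61 against 10.1 ± 1.90 CPM (SD, n = 3 each). Its log2 fold change was 1.63 (SE 0.20), or 3.09-fold higher. Footprints of TBXAS1, the next enzyme, were few, as given above. TBXA2R, the thromboxane receptor, had 15, 36 and 22 counts in sgCtrl against 22, 12 and 13 in sgN6AMT1. Its libraries overlapped, and its log2 fold change was -0.52 (SE 0.28, 95% interval -1.07 to 0.03).

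Of the granule genes, serglycin rose. SRGN (ENST00000242465.3, chromosome 10, 69088103 to 69104805, 3 exons) had 467, 758 and 564 counts in sgCtrl against 838, 876 and 708 in sgN6AMT1. In CPM its sgCtrl values were 235, 261 and 278 and its sgN6AMT1 values 367, 378 and 384, so the groups stood well apart. The log2 fold change was 0.54 (SE 0.062), or 1.46-fold higher. THBS1, the adhesive granule protein thrombospondin, had 34, 31 and 26 counts in sgCtrl against 38, 41 and 30 in sgN6AMT1, and did not pass (log2 fold change 0.36, SE 0.22, 95% interval -0.07 to 0.78). NBEAL2, a large scaffold needed to form alpha granules, had 138, 218 and 133 counts in sgCtrl against 119, 130 and 121 in sgN6AMT1. It passed the threshold narrowly, from 70.0 ± 4.83 to 58.0 ± 6.95 CPM (SD, n = 3 each), for a log2 fold change of -0.29 (SE 0.11), although sgN6AMT1 replicate 3 at 65.7 CPM lay just above sgCtrl replicate 3 at 65.6. NBEAL2 passed in 5 of 14 alternatives. It did not pass in fits without sgCtrl replicates 1 or 2 (log2 fold changes -0.30 and -0.23), without sgN6AMT1 replicates 1 or 2 (-0.22 and -0.27), in DESeq2 (-0.28), with upper-quartile factors (-0.28), with total counts without factors (-0.24), at a mean of at least 50 counts (-0.26) or with the replicate number as a block (-0.29).

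Of the skeleton and signalling genes, 3 fell and RAP1B did not pass. FERMT3, kindlin-3, binds the tail of the integrin β subunit and is needed to activate it (ENST00000279227.9, chromosome 11, 64206670 to 64223891, 15 exons). It had 434, 559 and 386 counts in sgCtrl against 259, 265 and 224 in sgN6AMT1, or 218, 193 and 190 CPM against 114, 114 and 122. The groups were far apart, and the log2 fold change was -0.78 (SE 0.078). PRKAR2B, a regulatory subunit of protein kinase A (ENST00000265717.4, chromosome 7, 107044705 to 107161811, 11 exons), had 271, 427 and 285 counts in sgCtrl against 209, 198 and 160 in sgN6AMT1. PRKAR2B dropped from 141 ± 5.58 to 88.0 ± 3.19 CPM (SD, n = 3 each), for a log2 fold change of -0.69 (SE 0.088), with no overlap. TUBB1, the β1-tubulin of the platelet's marginal band (ENST00000217133.1, chromosome 20, 59019429 to 59026654), had 29, 30 and 27 counts in sgCtrl against 19, 18 and 10 in sgN6AMT1. Its groups did not overlap and its log2 fold change was -0.77 (SE 0.27). TUBB1 did not pass in DESeq2 (log2 fold change -0.80) or in fits without sgCtrl replicates 1 or 3 (-0.67 and -0.73) or sgN6AMT1 replicates 2 or 3 (-0.82 and -0.63). RAP1B, the small GTPase upstream of integrin activation, had 176, 224 and 150 counts in sgCtrl against 213, 204 and 164 in sgN6AMT1 (log2 fold change 0.18, SE 0.10, 95% interval -0.02 to 0.38). The value of RAP1B is uncertain where reads could be shared with its close relative RAP1A.

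NFE2, a transcription factor needed for platelet release, had 363, 458 and 378 counts in sgCtrl against 364, 371 and 302 in sgN6AMT1. Its groups overlapped at 176 ± 15.4 and 161 ± 2.36 CPM, with a log2 fold change of -0.11 (SE 0.075, 95% interval -0.26 to 0.03). It was thus the third gene of the list by level per length in sgCtrl and did not pass the threshold.

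**Figure D4:**
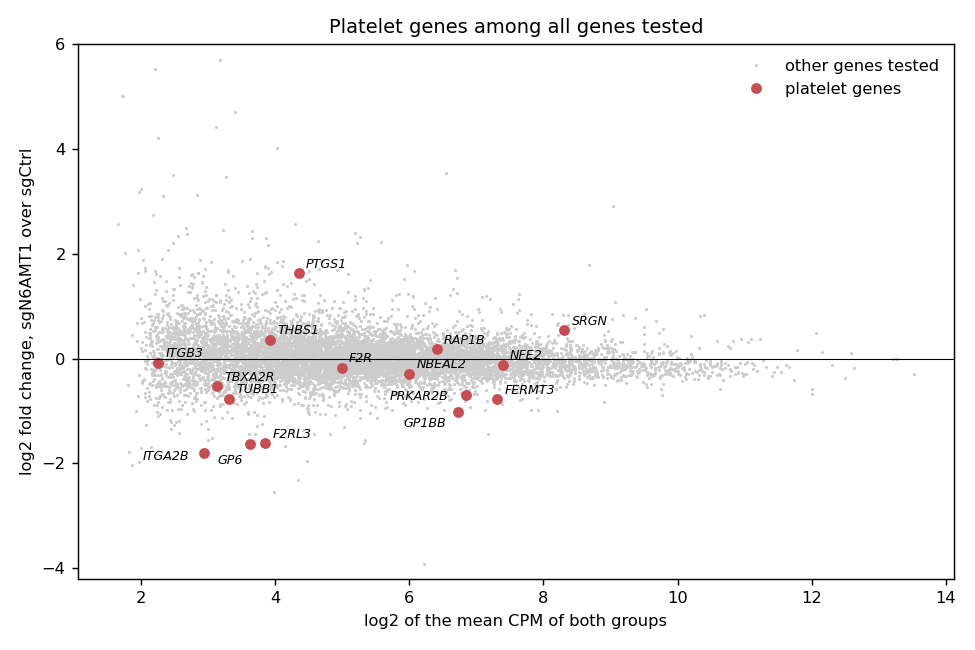
Log2 fold change of sgN6AMT1 over sgCtrl against the log2 of the mean CPM of both groups for the 9202 genes tested (grey) and the 16 compared platelet genes (red, named). Platelet genes are found from low to high abundance, and PTGS1 and SRGN stand above 0 while ITGA2B, GP6 and F2RL3 lie near the lower edge at their abundance.

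Footprints on the reading frame end where eRF1 acts, so the stop codons of the listed transcripts were read from GENCODE. Of the 31 matched transcripts, 15 ended in TGA (48.4%), 13 in TAA (41.9%) and 3 in TAG (9.68%). Over 17496 transcripts of the table the shares were 49.2%, 28.6% and 22.2%. No test was made.

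Other genes of platelet activation were described by a list of 121 names for the signalling, skeleton and secretion machinery, drawn up with earlier results of these data known. Of these, 80 had enough counts, with 22 higher, 9 lower and 49 not past the threshold, and a median log2 fold change of 0.09. Over all genes tested, 12.9% were higher and 13.9% lower. Only 5 were lower without sgN6AMT1 replicate 2, and 14 were higher in DESeq2. Among genes with a mean of at least 10 CPM, the largest decreases were those of SEPT5 given above, RGS10 and PIK3CB. RGS10 is a regulator of G protein signalling and PIK3CB a catalytic subunit of PI3-kinase. RGS10 fell by 1.07 on the log2 scale (SE 0.16) and PIK3CB from 44.9 ± 3.97 to 22.7 ± 5.61 CPM (SD, n = 3 each). By the same minimum, the largest increases were those of RAB32, a GTPase of dense granule formation, VAV1, an exchange factor, and ORAI1, the store-operated calcium channel. Their log2 fold changes were 1.15 (SE 0.23), 0.91 (SE 0.22) and 0.89 (SE 0.25). In sgCtrl, RAB32 and ORAI1 were at 8.18 and 8.23 CPM. They reached the minimum only with sgN6AMT1, where they were at 18.4 and 15.0 CPM.

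Of 50 names of megakaryocytic and related regulators, 36 had enough counts, with 12 lower, 6 higher and a median log2 fold change of -0.10, beside 13.9% lower and 12.9% higher over all genes. Among those with a mean of at least 10 CPM, decreases included those of LMO2, a bridging protein of the GATA1 complex, STAT5A, a factor of cytokine signalling, and MEF2C. LMO2 had 79, 125 and 82 counts in sgCtrl against 25, 43 and 30 in sgN6AMT1, with a log2 fold change of -1.44 (SE 0.17). STAT5A fell from 394 ± 12.8 to 197 ± 16.2 CPM (SD, n = 3 each), and MEF2C had a log2 fold change of -0.85 (SE 0.12). GATA1 itself, a marker of the cell line in the lists, fell by 0.29 (SE 0.063). The largest increases among them were those of SPI1, KIT and CBFB. SPI1, a myeloid ETS factor, had 21, 30 and 19 counts in sgCtrl against 62, 69 and 47 in sgN6AMT1 (log2 fold change 1.44, SE 0.20). KIT was at 9.51 CPM in sgCtrl and reached the minimum only with sgN6AMT1, where it was at 17.5 CPM.

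Erythroid genes, the other lineage of K562, went both ways. Of 42 names 39 had enough counts, with 12 lower, 9 higher and a median log2 fold change of -0.02, where 13.9% of all genes were lower and 12.9% higher. ALAS2, the first enzyme of heme synthesis in red cells, rose from 48.6 ± 4.61 to 157 ± 10.2 CPM (SD, n = 3 each). KEL, a blood group antigen, and GYPC, a glycophorin, also rose, with log2 fold changes of 0.81 and 0.64. TMOD1, a cap of actin filaments, and HBB, the adult β-globin, fell, with log2 fold changes of -0.82 and -0.81.

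**Figure D5:**
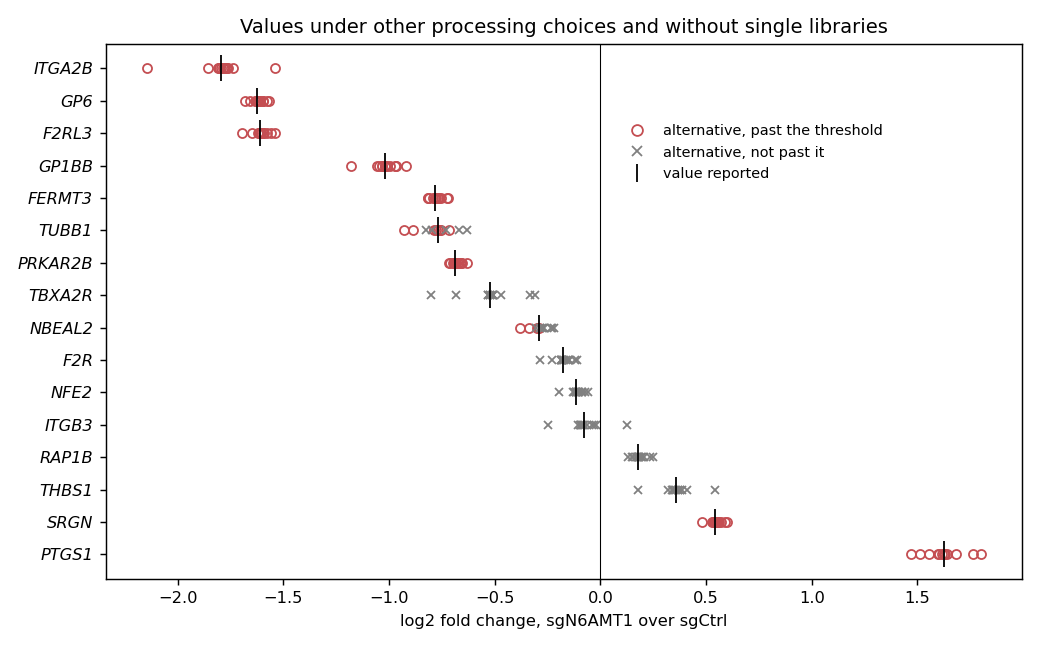
Log2 fold change of each compared platelet gene as reported (vertical bars) and under each alternative, which used another tool, scaling, filter or the replicate block or left out 1 library (circles past the threshold, crosses not). ITGA2B, GP6, F2RL3, GP1BB, FERMT3, PRKAR2B, SRGN and PTGS1 pass in every alternative that tested them, TUBB1 in 8 of 13 and NBEAL2 in 5 of 14.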

How the data were processed

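Per the methods, adapters were removed with cutadapt, reads were selected by footprint length and aligned with HISAT2 to GRCh38, and those on rRNA or tRNA were dropped. Remaining reads were mapped with bowtie2 to 1 canonical transcript per gene, and riboWaltz P-sites were summed over each CDS. The authors deposited whole-number counts, neither normalized nor pooled. The methods describe a second count over gene annotation, and which count was deposited is not stated. No molecular identifiers are described, so the exact interval of TBXAS1 and the floors cover counting error only. The intervals of log2 fold changes come from the SE of the fit, which also takes in the spread between libraries.

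Members were matched by symbol, with 1 row each. The comparison used edgeR 4.0.16 under R 4.3.3 (filterByExpr at 10 counts, TMM factors, robust quasi-likelihood F test, 2-sided, Benjamini-Hochberg adjustment over 9202 genes, threshold 0.05). CPM used TMM-adjusted library sizes. SE came from the F statistic, and 95% intervals are normal approximations. Depth was 2031944, 2969736 and 2079966 counts for sgCtrl and 2250758, 2277616 and 1821356 for sgN6AMT1. Replicates were independent lentiviral infections, per the study. Alternatives were DESeq2 1.42.0, other factors and filters, limma-voom (limma 3.58.1), a replicate block and leaving out each library.

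Of 19330 transcripts, 17687 (91.5%) and 31 of the 33 members matched GENCODE release 44 on GRCh38 by unversioned identifier, and CDS lengths leave out the stop codon. Motifs were counted in 250 bases before RefSeq starts. The members and all lists were chosen with earlier results of these data known. All members with enough counts are named, and from each other list up to 3 past the threshold in each direction with a mean of at least 10 CPM. Some results that this rule covers are not reported here. No p-value is printed for members, since they were chosen on the same comparison.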

Additional observations from a re-analysis of the deposited data

How the results depend on the processing

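Of the 10 platelet genes past the threshold, 8 kept their direction and stayed past it in all alternatives that tested them. Only the 8 best covered of the 16 genes were left at a mean of at least 50 counts, with 3 lower and 1 higher of them past the threshold. DESeq2 called the same genes except NBEAL2 and TUBB1, and 1440 in place of 2473 genes over the whole table. It called 14 activation genes higher in place of 22. Leaving out 1 library gave 6 to 7 lower and 2 higher platelet genes, and 5 to 9 lower activation genes, the 5 without sgN6AMT1 replicate 2. ITGB3, not past the threshold, changed sign among the fits without 1 library (log2 fold change -0.25 to 0.13, positive without sgCtrl replicate 1). With total counts without factors, 38.5% of the genes past the threshold over the whole table were lower in place of 51.8%, and 7 of 9 platelet genes in place of 8 of 10.

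Same-numbered libraries did not deviate together (correlations of deviations -0.06, 0.02 and 0.02), so the numbers are not taken as pairs. With the replicate block, 7 platelet genes were lower and 2 higher, NBEAL2 being lost (log2 fold change -0.29), and 2390 genes passed over the whole table. The cause of these differences was not tested. Depth limits the 17 genes under the filter, of which TBXAS1 alone passed the threshold when no filter on low counts was used and the others were either not tested there or did not pass.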
